A study of Mus musculus with 38 samples.

Results

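Zfp961, Top2b, Brpf3, Pgap1, Pip5k1b, Arfgef2, Nedd9 and 5031439G07Rik are 8 of the 21441 genes measured by RNA-seq in mouse intestinal epithelium, and they were selected on their log2 fold change after the vitamin D hormone, higher in villi than in colon, while being expressed in both. The members were thus chosen by their villus and colon values, which are given below as a description without a test; the crypts of the small intestine were not used by that rule, and the test is given there. The working name of the set, genes raised in the small intestine and flat in the colon, speaks of the small intestine as a whole, so crypt results were in view when it was named and the count of members called there is not independent support. The rule had no threshold: by the villus minus the colon fold change the members ranked from 25 (Pgap1) to 325 (Pip5k1b) among the 9425 genes tested in both tissues. The name did not hold for every member. Nedd9, Top2b and Zfp961 did not pass the test in crypts, and 5031439G07Rik was above every vehicle library in all 7 vitamin D libraries of colon. Nedd9 also had a larger log2 fold change in colon (0.33) than in crypts (0.10), a difference that was not tested.

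All groups were vitamin D deficient, the vehicle mice included, and all mice were wild type of the C57BL6/J strain. One group of mice received the hormone itself, 1,25(OH)2D3, intraperitoneally at 10 ng per g of body weight (called vitamin D below), and the other received 0.1 ml of a propylene glycol and ethanol mix; tissue was taken 4 h later. The labels give an age of 10 to 13.3 weeks, the injection protocol one of 12 to 14 weeks. Villi gave 6 vehicle and 7 vitamin D libraries, as did colon, and crypts gave 6 of each kind, which makes 38. Villi and crypts came from the proximal small intestine, were released with EDTA and were parted on a 70 µm filter, and colon epithelium was scraped from the opened colon. The labels speak of pooled males and females. By whichever of Xist and Ddx3y was higher, 24 libraries were given a female and 14 a male pattern. That rule cannot mark a library as mixed, so it does not show whether the sexes were pooled. The sources used here do not say whether libraries stand for separate mice, and p-values therefore rest on a spread between samples that may be technical.

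The hormone acts through the vitamin D receptor, Vdr, a nuclear receptor that pairs with a retinoid X receptor on DNA and switches target genes on within hours. In the intestine its best known role is calcium absorption, and Cyp24a1, the enzyme that breaks the hormone down, is its most sensitive target. The 8 genes are not a pathway: 3 encode nuclear proteins (Top2b, Brpf3 and Zfp961), 3 act on membrane lipids, membrane anchors or membrane traffic (Pgap1, Pip5k1b and Arfgef2), Nedd9 encodes an adhesion scaffold, and 5031439G07Rik is little characterised.

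Levels are FPKM, fragment counts scaled to transcript length and library size, with the SD over libraries. Fold changes are vitamin D against vehicle on the log2(FPKM + 0.5) scale with their standard error; on that scale low genes appear to change less than they do. A gene entered limma's test where 6 or more libraries of the tissue reached an FPKM of 1, and was called at a Benjamini-Hochberg adjusted p of 0.05 over all genes tested. Libraries held 13.8 M to 17.4 M reads, and the authors' deposited tables of vitamin D against vehicle gave the members mean normalised counts between 310 (Zfp961 in colon) and 3758 (Brpf3 in colon). Each of the 8 genes passed the filter in each tissue, and the lowest single value of any member was 1.81 FPKM. Cyp24a1, the check of treatment, averaged 1.62 FPKM in vehicle and 3625 FPKM in vitamin D libraries of crypts (log2 fold change 11.37 ± 0.48, adjusted p = 6.5e-08 by limma). Vdr itself had a log2 fold change of 0.34 ± 0.17 there (adjusted p = 0.381 by limma). In villi Cyp24a1 averaged 11.0 FPKM in vehicle and 3378 FPKM in vitamin D libraries, and in colon 12.8 and 2388 FPKM. Vehicle replicate 6 held the highest vehicle value in both tissues, 62.2 FPKM in villi and 64.7 in colon, beside vehicle medians of 0.977 and 2.87. The lowest vitamin D value in colon was 403 FPKM, in replicate 7.

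The tissues matched their labels by most defining markers. Apoa1, an apolipoprotein of absorptive cells, averaged 14842 FPKM in villi, 4924 in crypts and 115 in colon; Lyz1, a Paneth cell lysozyme, averaged 230, 5800 and 47.1; and Car1, a carbonic anhydrase of colonocytes, averaged 15.1, 1.38 and 7088. The crypt libraries also held villus transcripts in uneven amounts: the summed FPKM of 10 villus enterocyte markers ran from 6114 to 50242 in vehicle (median 19764) and from 7184 to 30188 in vitamin D libraries (median 12264), with 0 of the 10 called. The highest sums of each group were in replicates 5 and 6, whose names are hyphenated in the labels. They were 41802 and 50242 in vehicle, and 18184 and 30188 with vitamin D. Vehicle replicate 4 had the lowest sum. The sum of 9 crypt and proliferation markers had a median of 5491 in vehicle and 6930 in vitamin D libraries of crypts, and that of 9 immune markers 33.9 and 75.6, again with 0 called. The part of villus, crypt or immune transcripts in the crypt results was not tested. A fit with the villus sum as a covariate is given below. In colon, the summed FPKM of 10 smooth muscle and stromal markers was 2661 and 9106 in vitamin D replicates 1 and 2, against 29.7 to 499.6 in the other 11 colon libraries. Colon results are therefore given with and without those replicates. In bulk libraries such as these, fewer cells of a type and less RNA per cell cannot be told apart.

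The hormone's receptor binds DNA, and its response elements can lie near gene starts. Upstream sequence is shown for Pgap1 and Arfgef2, the 2 members with such sequence at hand whose exons overlapped no other gene's exons. These are the 250 bases before the start in RefSeq on GRCm38.p6, 5′ to 3′ on the gene's strand, in lower case with a receptor core hexamer in capitals. Pgap1 lies on the minus strand at chr1:54557685-54557934, with a GC content of 68.8% and 20 CpG, and Arfgef2 on the plus strand at chr2:166805331-166805580, with 70.8% and 25 CpG.
Pgap1: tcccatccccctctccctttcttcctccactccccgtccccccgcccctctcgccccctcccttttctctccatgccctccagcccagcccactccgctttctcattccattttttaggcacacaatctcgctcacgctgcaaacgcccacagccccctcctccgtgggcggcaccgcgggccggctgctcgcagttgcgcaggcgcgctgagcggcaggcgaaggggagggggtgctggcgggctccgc
Arfgef2: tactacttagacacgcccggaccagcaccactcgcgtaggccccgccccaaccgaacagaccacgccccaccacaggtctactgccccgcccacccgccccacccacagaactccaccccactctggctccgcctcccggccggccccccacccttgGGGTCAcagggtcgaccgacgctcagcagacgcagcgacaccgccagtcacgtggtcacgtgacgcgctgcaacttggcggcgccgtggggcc
RefSeq windows were found for 7 of the 8 members by symbol, with 2 windows for 5031439G07Rik; Pip5k1b had none. The hexamer AGGTCA, its close variant GGGTCA, the form AGTTCA and lastly GGTTCA were searched on both strands. One or more of them occurred in 1 of these 8 windows, the GGGTCA of Arfgef2 at 93 bases before the start, and in 38.6% of the 32851 windows of the same length (GGGTCA alone in 11.6%). A pair of these hexamers as a direct repeat with 3 bases between, the classic receptor element, was in 0 of the 8 windows and in 0.0396% of all. No match says only that these letters are not in the window. The GC content of the 8 windows ran from 44.4% to 78.8%, against a median of 52.4% over all windows.

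All 8 members were higher in all 7 vitamin D libraries of villi than in any vehicle library, a pattern that held for 1.75% of all genes tested in villi and that the choice of members favoured. Their villus log2 fold changes ran from 0.53 to 1.50 with a median of 0.89, beside a median of -0.01 over all genes tested. In colon the members ran from -0.13 to 0.48 with a median of 0.05, and 1 of 8 did not overlap with vehicle, beside 0.754% of all genes. In crypts, 5 of the 8 members were called, all higher: 5031439G07Rik, Pgap1, Pip5k1b, Brpf3 and Arfgef2. Of the 10733 genes tested in crypts, 1.46% were called (157), 1.13% higher (121) and 0.335% lower (36). In the authors' deposited table, Zfp961 and these 5 members, or 6 of 8, were called higher in crypts, beside 2.40% of the genes with an adjusted p there. The same 5 members did not overlap between the crypt groups, as did 1.23% of all genes in that direction. The crypt log2 fold changes of the members ran from 0.10 to 1.25, were above 0 in 8 of 8 members and in 47.6% of all genes tested, and had a median of 0.43 beside -0.01. A replicate block in the fit brought the crypt calls to 444 in place of 157 genes, and 5 of the 8 members were again called. Without crypt vehicle replicate 4 the calls came to 1059 genes, with 6 of the 8 members among them.

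**Figure D1:**
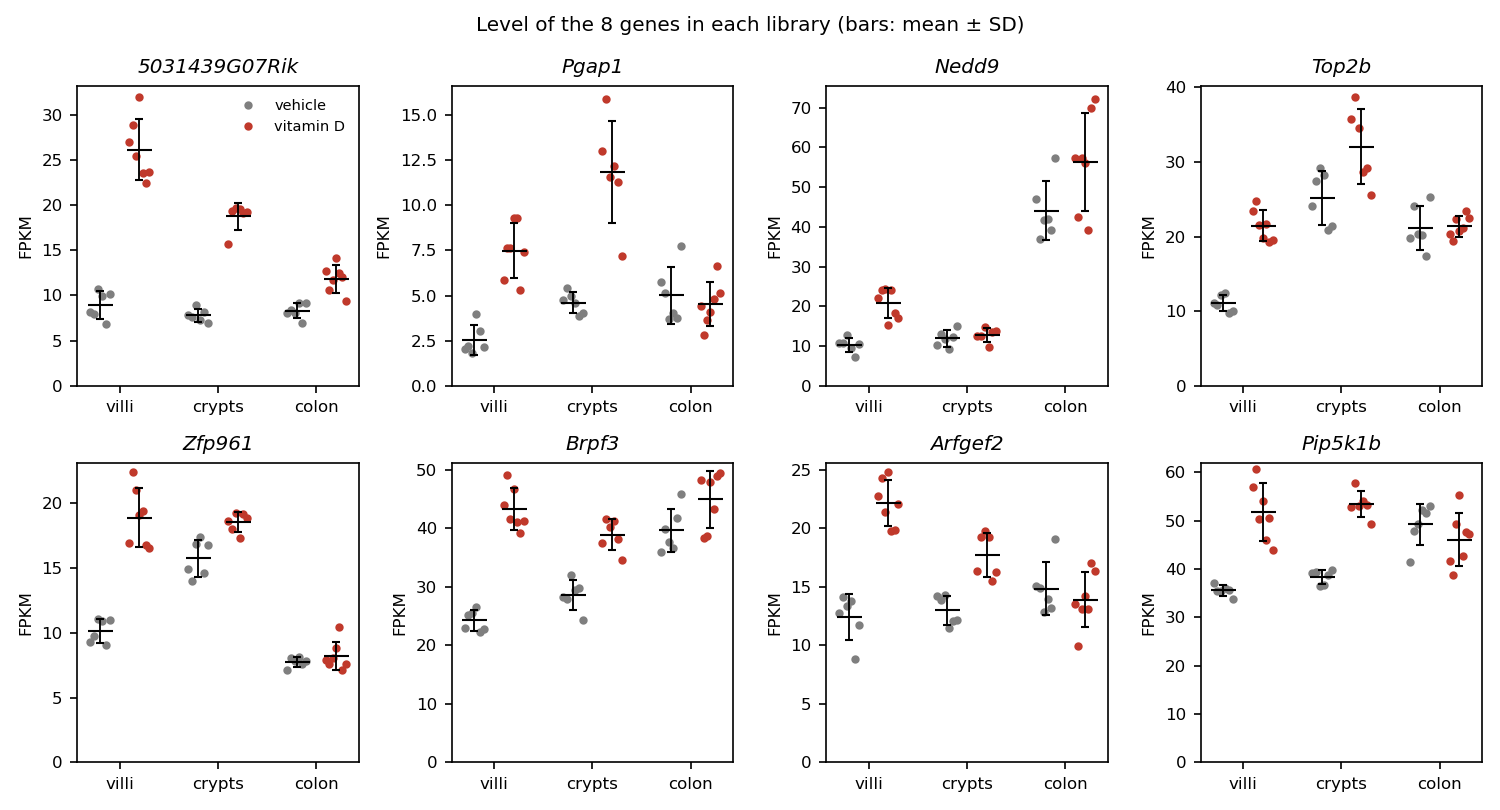
Level of each of the 8 genes in FPKM (vertical axis, from 0, scaled per gene) in every library of villi, crypts and colon, with vehicle and vitamin D side by side. Points are libraries and bars the mean ± SD; vitamin D libraries lie above all vehicle libraries in villi for 8 of 8 genes, in crypts for 5 and in colon for 1.

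**Figure D2:**
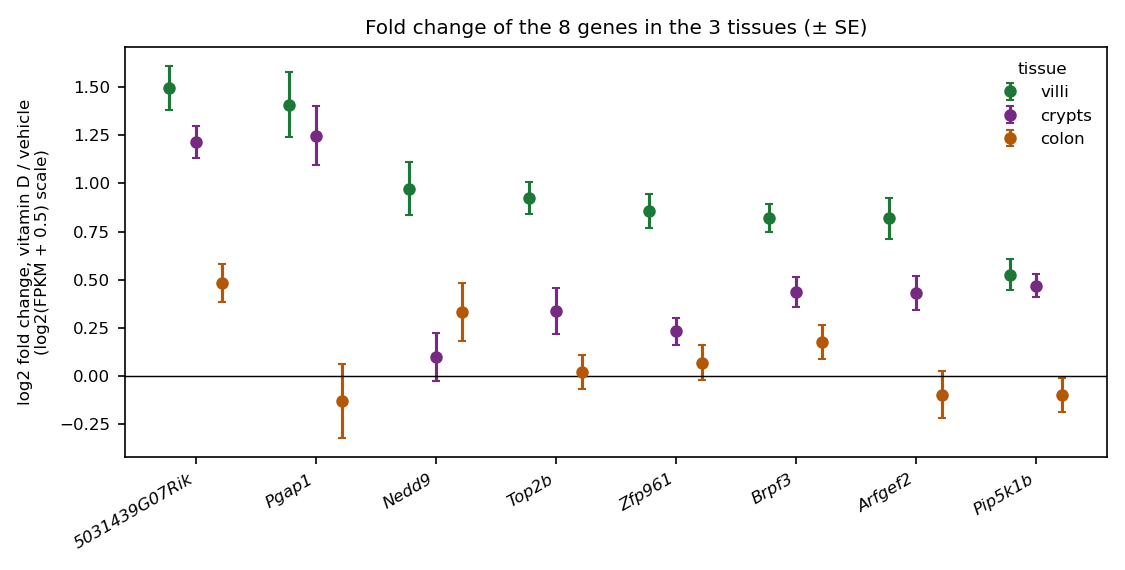
Log2 fold change of vitamin D against vehicle on log2(FPKM + 0.5), vertical axis, for each gene in villi, crypts and colon, with bars of 1 standard error. Nedd9 is near 0 in crypts (0.10) but not in villi (0.97), whereas Pgap1 and Pip5k1b have similar values in villi and crypts.

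Among the nuclear proteins, Top2b encodes DNA topoisomerase II beta, which passes one DNA duplex through another. It is not confined to dividing cells, while its relative Top2a belongs to proliferating cells. Villus Top2b spanned 9.72 to 12.4 FPKM in vehicle (median 11.0) and 19.3 to 24.8 FPKM with vitamin D (median 21.5). The 7 vitamin D libraries all lay above the 6 vehicle libraries, a log2 fold change of 0.92 ± 0.08. The crypt values started higher, at 20.8 to 29.1 FPKM in vehicle (median 25.7), and spanned 25.5 to 38.7 FPKM with vitamin D (median 31.9). The groups overlapped, since 4 of 6 vitamin D libraries lay above all vehicle libraries, and the log2 fold change of 0.34 ± 0.12 did not pass the test (adjusted p = 0.204 by limma). Top2b was called with the style of the library names (plain, or hyphenated in the labels) as a covariate (adjusted p = 0.0416 by limma). In colon, all 7 vitamin D libraries (19.4 to 23.4 FPKM, median 21.2) fell inside the vehicle range of 17.4 to 25.3 FPKM (median 20.3), with a log2 fold change of 0.02 ± 0.09, or 0.06 without vitamin D replicates 1 and 2. Top2b shares 1429 bases of exon with Rarb on the opposite strand, and the sources used here do not say whether counting used strand; Rarb reached at most 0.345 FPKM in any library.

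Brpf3 encodes a bromodomain and PHD finger scaffold that steers the HBO1 histone acetyltransferase. It measured 24.3 ± 1.77 FPKM in vehicle villi (SD, n = 6; lowest 22.3, median 24.1, highest 26.6) and 43.2 ± 3.58 FPKM with vitamin D (n = 7; 39.1, 41.5 and 49.2). The gap between the groups was wider than either group's range, and the ratio of means was 1.78-fold. Crypt levels rose from 28.6 ± 2.58 FPKM (24.3, 28.9 and 32.1) to 38.9 ± 2.64 FPKM (34.6, 39.2 and 41.5). The 6 vitamin D libraries were all above the 6 vehicle libraries, and the log2 fold change of 0.44 ± 0.08 passed the test (adjusted p = 0.0116 by limma). Colon vehicle libraries held 39.6 ± 3.71 FPKM (median 38.7), near the villus level after the hormone, although the tables of the tissues were normalised separately. Vitamin D libraries of colon spanned 38.3 to 49.5 FPKM (median 47.9) against 36.0 to 45.8 FPKM in vehicle, so 4 of 7 lay above the vehicle range, with a log2 fold change of 0.18 ± 0.09 (0.20 without vitamin D replicates 1 and 2). Brpf3 and Nedd9 share up to 272 and 62 bases of exon with antisense RNAs on the opposite strand, not analysed here.

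Zfp961 encodes a C2H2 zinc finger protein, a class of DNA-binding proteins with many near copies in the mouse genome; the sources used here do not say how the authors divided reads among copies, so its level is uncertain. Villus levels were 9.06 to 11.0 FPKM in vehicle (median 10.4) and 16.6 to 22.4 FPKM with vitamin D (median 19.1), without overlap. That is a 1.86-fold ratio of means. In crypts the vehicle libraries spanned 14.0 to 17.4 FPKM (median 15.9) and the vitamin D libraries 17.3 to 19.3 FPKM (median 18.8). Here 5 of 6 vitamin D libraries lay above all vehicle libraries, but the log2 fold change of 0.23 ± 0.07 was not called (adjusted p = 0.150 by limma). The authors' deposited table gave Zfp961 in crypts an adjusted p of 0.0368, and without crypt vehicle replicate 4 limma gave an adjusted p of 0.0367. Colon had the lowest Zfp961 level of the tissues, 7.76 ± 0.367 FPKM in vehicle (7.12, 7.83 and 8.12) and 8.21 ± 1.10 FPKM with vitamin D (7.13, 7.89 and 10.4), with 5 of 7 vitamin D libraries inside the vehicle range. The colon log2 fold change was 0.07 ± 0.09, and 0.10 without vitamin D replicates 1 and 2. Zfp961 shares 114 bases of exon with Cyp4f18 on the opposite strand, which reached at most 0.939 FPKM in any library.

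Of the membrane genes, Pgap1 encodes the endoplasmic reticulum enzyme that removes the acyl chain from the inositol of freshly attached GPI anchors, a step before anchored proteins leave for the Golgi. It had the lowest vehicle level of the set in villi, 1.81 to 3.96 FPKM (median 2.19), and spanned 5.31 to 9.31 FPKM with vitamin D (median 7.62). Every vitamin D library lay above every vehicle library, a 2.95-fold ratio of means and a log2 fold change of 1.41 ± 0.17. In crypts Pgap1 rose from 4.61 ± 0.584 FPKM (3.85, 4.68 and 5.43) to 11.9 ± 2.82 FPKM (7.22, 11.9 and 15.9). The crypt groups did not overlap either, and the log2 fold change of 1.25 ± 0.15 passed the test (adjusted p = 0.000841 by limma). Vitamin D libraries of crypts were more spread than vehicle libraries, with an SD of 2.82 against 0.584 FPKM. Colon Pgap1 was 5.02 ± 1.56 FPKM in vehicle (3.68, 4.59 and 7.72) and 4.52 ± 1.22 FPKM with vitamin D (2.84, 4.43 and 6.66), a log2 fold change of -0.13 ± 0.19, or -0.02 without vitamin D replicates 1 and 2. None of the 7 colon vitamin D libraries was above the vehicle range and 2 were below it.

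Pip5k1b encodes a kinase that makes phosphatidylinositol 4,5-bisphosphate, the lipid that anchors actin regulators and endocytic coats at the plasma membrane. It was among the most abundant members, at 33.8 to 37.1 FPKM in vehicle villi (median 35.6) and 43.9 to 60.7 FPKM with vitamin D (median 50.5). Its villus log2 fold change of 0.53 ± 0.08 was the lowest of the 8, with no overlap between the groups. In crypts it rose from 38.4 ± 1.41 FPKM (36.5, 39.0 and 39.8) to 53.4 ± 2.71 FPKM (49.4, 53.2 and 57.8). The tight groups stayed apart in all libraries, and the log2 fold change of 0.47 ± 0.06 passed the test (adjusted p = 0.000981 by limma). Colon measured 49.2 ± 4.30 FPKM in vehicle (41.4, 50.5 and 53.1) and 46.1 ± 5.50 FPKM with vitamin D (38.9, 47.2 and 55.3), with a log2 fold change of -0.10 ± 0.09, or -0.02 without vitamin D replicates 1 and 2. Of the 7 colon vitamin D libraries, 5 lay inside the vehicle range, 1 above and 1 below.

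Arfgef2, also known as BIG2, encodes an exchange factor that loads GTP on Arf proteins at the trans-Golgi network and endosomes and so starts the budding of coated vesicles. Villus values were 8.84 to 14.1 FPKM in vehicle (median 13.1) and 19.8 to 24.8 FPKM with vitamin D (median 22.1), without overlap. The villus log2 fold change was 0.82 ± 0.11. In crypts Arfgef2 rose from 13.0 ± 1.25 FPKM (11.4, 13.0 and 14.3) to 17.7 ± 1.88 FPKM (15.5, 17.8 and 19.8), a log2 fold change of 0.43 ± 0.09 (adjusted p = 0.0305 by limma). All 6 vitamin D libraries were above all vehicle libraries, yet the call was the least stable of the 5. It was lost without any of crypt vehicle replicates 5 and 6 and vitamin D replicates 2, 3 and 4 (adjusted p = 0.0666 to 0.0928 by limma), and among the plain-named libraries alone, 4 against 4 (0.124). In colon the vehicle libraries spanned 12.9 to 19.1 FPKM (median 14.4) and the vitamin D libraries 9.98 to 17.0 FPKM (median 13.5), so 6 of 7 lay inside the vehicle range and 1 below it. The colon log2 fold change was -0.10 ± 0.12, and -0.00 without vitamin D replicates 1 and 2.

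Nedd9 encodes a scaffold of the Cas family, a relative of Bcar1, that links integrins and Src-type kinases to cell movement. In villi it measured 7.33 to 12.9 FPKM in vehicle (median 10.7) and 15.4 to 24.4 FPKM with vitamin D (median 22.2), a log2 fold change of 0.97 ± 0.14 with no overlap. In crypts the vehicle libraries spanned 9.23 to 15.2 FPKM (median 12.0) and the vitamin D libraries 9.87 to 14.8 FPKM (median 13.0). All 6 vitamin D libraries of crypts thus lay inside the vehicle range, and the log2 fold change of 0.10 ± 0.12 did not pass the test (adjusted p = 0.730 by limma). The 95% interval of that value ran from -0.18 to 0.38. The difference between villi and crypts was not tested, since the rule used villi. Nedd9 was more abundant in colon than in villi or crypts, at 44.1 ± 7.37 FPKM in vehicle (37.0, 41.9 and 57.4) and 56.3 ± 12.4 FPKM with vitamin D (39.2, 57.2 and 72.2). The colon groups overlapped, with 2 of 7 vitamin D libraries above the vehicle range, and the log2 fold change was 0.33 ± 0.15, or 0.40 without vitamin D replicates 1 and 2.

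5031439G07Rik encodes a protein of little known function, listed in RefSeq under the synonym mKIAA0930. It had the largest villus log2 fold change of the set, 1.50 ± 0.12. The villus libraries spanned 6.82 to 10.8 FPKM in vehicle (median 9.06) and 22.4 to 31.9 FPKM with vitamin D (median 25.5). In crypts it rose from 7.81 ± 0.717 FPKM (6.94, 7.74 and 8.97) to 18.8 ± 1.52 FPKM (15.7, 19.3 and 19.7). That 2.40-fold ratio of means had a log2 fold change of 1.21 ± 0.08 (adjusted p = 6.8e-06 by limma) and ranked 3 by p among the 10733 genes tested. Colon did not stay flat for this gene. Its 7 vitamin D libraries spanned 9.36 to 14.1 FPKM (median 12.0), all above the 6 vehicle libraries at 6.95 to 9.21 FPKM (median 8.22). The colon log2 fold change was 0.48 ± 0.10, about as large as the crypt values of Pip5k1b and Brpf3, and 0.49 without vitamin D replicates 1 and 2. The gene shares 98 bases of exon with Mir1249 on the same strand, so reads there cannot be told apart. The row of Mir1249 averaged 3.99 FPKM in vehicle and 14.4 FPKM in vitamin D libraries of villi, 4.05 and 13.9 FPKM in crypts, and 6.54 and 7.30 FPKM in colon, with overlapping groups in each tissue, and its part in the values of 5031439G07Rik was not tested.

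**Figure D3:**
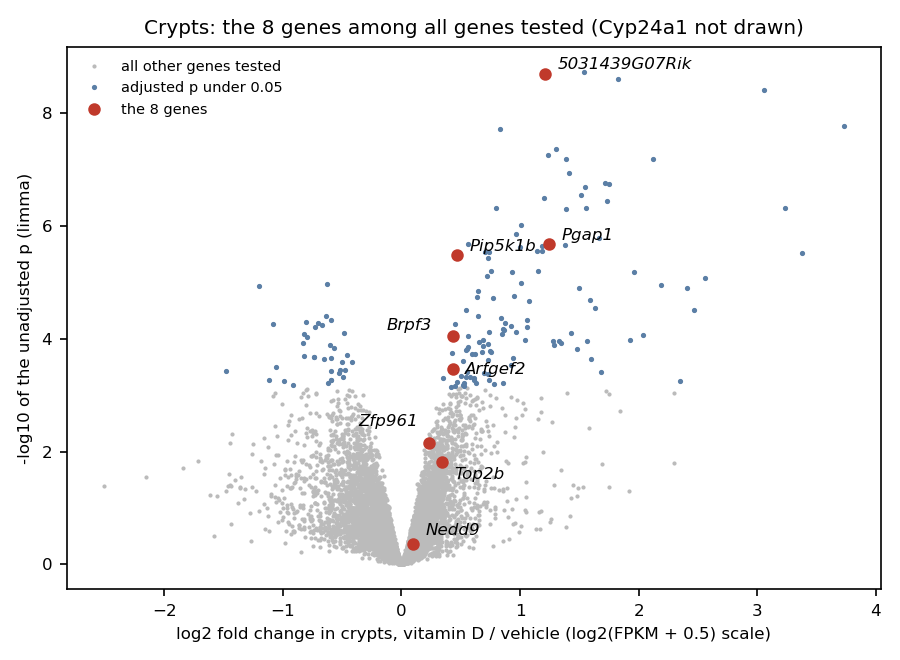
Each point is a gene tested in crypts, with the log2 fold change of vitamin D against vehicle on the horizontal axis and minus log10 of the p-value on the vertical axis; blue points are called and the 8 members are red, and Cyp24a1 is not drawn. 5031439G07Rik and Pgap1 lie furthest to the right of the members and Nedd9 (0.10) lies near 0.

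With the villus marker sum as a covariate in crypts, chosen after seeing the data, 5 of the 8 members were again called: 5031439G07Rik at 1.23, Pgap1 at 1.13, Pip5k1b at 0.47, Arfgef2 at 0.42 and Brpf3 at 0.40 on the log2 scale. The adjusted p of these by limma ran up to 0.0300, the value of Arfgef2. Top2b had 0.23 in that fit, Zfp961 0.23 and Nedd9 0.19, and none was called. The marker sum was only added to the treatment term. It could not remove a villus response that villus RNA brings into the vitamin D libraries of crypts. In vitamin D libraries the sum had a median of 12264 FPKM in crypts and 50140 FPKM in villi, normalised separately. The part of villus RNA in the crypt calls was not tested. The smooth muscle and stromal marker sum in crypts was 7.83 to 11.8 FPKM, with 8 of the 10 markers averaging under 1 FPKM.

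The relatives and partners of the members were described in crypts by 7 gene lists. Leaving the members out, 0 genes were called in either direction by limma in each list, beside 1.46% of all genes tested. An unadjusted p under 0.05 was found for 27 of these 327 genes (8.26%), beside 15.3% of all genes tested: 3 of 7 topoisomerases, 0 of 12 genes of the BRPF, HBO1 and MOZ acetyltransferase complexes, 3 of 26 of GPI anchor synthesis and remodelling, 1 of 8 phosphatidylinositol phosphate kinases, 1 of 16 Arf proteins and exchange factors, 1 of 12 Cas scaffolds and focal adhesion partners, and 18 of 246 zinc finger genes. With the replicate block 7 genes of these lists were called, and by the authors' deposited table also 7. The median log2 fold change of a list ran from -0.09 (Cas scaffolds and partners) to 0.10 (topoisomerases), beside -0.01 for all genes tested.

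Among the closest relatives, Arfgef1, another large Golgi exchange factor, had the largest fold change in crypts. It measured 39.0 FPKM in vehicle and 49.9 FPKM in vitamin D libraries of crypts, a log2 fold change of 0.35 ± 0.11 that was not called (adjusted p = 0.160 by limma), beside 0.51 ± 0.11 in villi and 0.16 ± 0.12 in colon. Top2a, the proliferative topoisomerase II, had 0.16 ± 0.23 in crypts (adjusted p = 0.770 by limma), and Top1, the single-strand cutter, 0.10 ± 0.12. Brpf1 and Brd1, the other scaffolds of the Brpf family, had 0.16 ± 0.18 and 0.03 ± 0.11. Pip5k1a and Pip5k1c, which make the same lipid as Pip5k1b, had -0.03 ± 0.36 and 0.16 ± 0.14. Pgap2 and Pgap3, which remodel the lipid of GPI anchors after Pgap1, had 0.05 ± 0.10 and 0.01 ± 0.09. The whole GPI anchor list, without Pgap1, ran in crypts from -0.41 ± 0.12 (Pigv) to 0.68 ± 0.20 (Mppe1). Neither of these ends was called (adjusted p = 0.123 and 0.124 by limma). Bcar1, the founding Cas scaffold, had 0.03 ± 0.11. None of the 10 closest relatives was called, and whether a member and its relative differed was not tested.

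**Figure D4:**
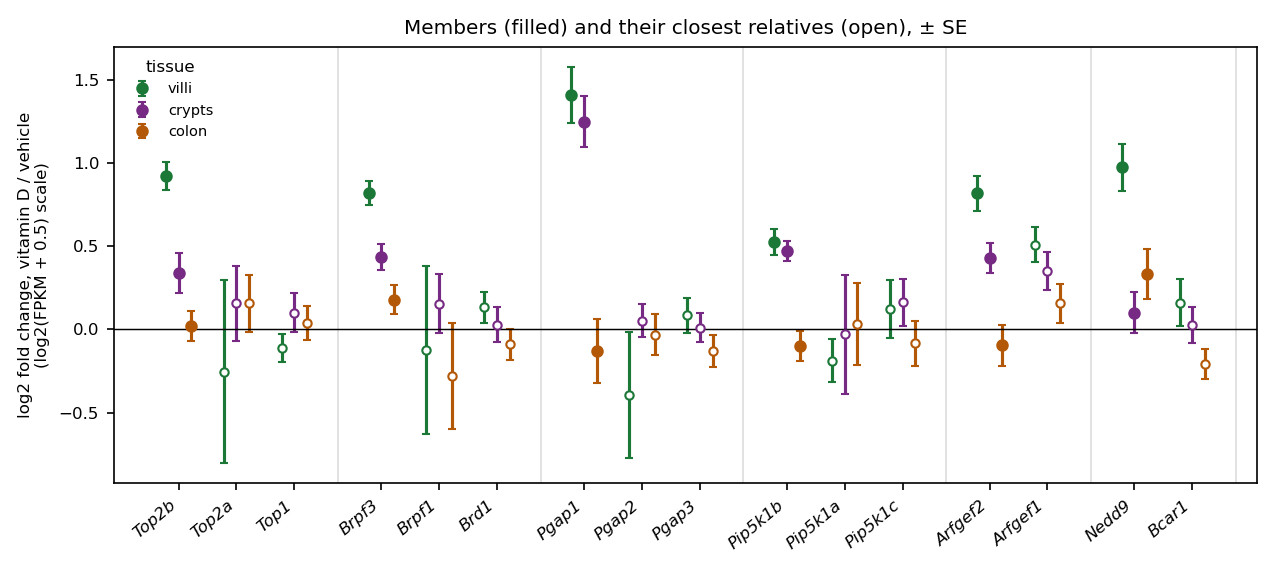
Log2 fold change (vertical axis, with bars of 1 standard error) of members, filled, and of their closest relatives, open, in villi, crypts and colon. Arfgef1 has the largest crypt value of the closest relatives drawn (0.35), and Pgap2 and Pgap3 (0.05 and 0.01 in crypts) lie far below Pgap1.

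Apart from the response, the members varied together to differing degrees. On log2(FPKM + 0.5) centred on the mean of each tissue and treatment group, over the 38 libraries, the 28 pairs of members had a median Pearson r of 0.28, from 0.01 to 0.69. The highest was that of Brpf3 with Arfgef2, and the 6 pairs over 0.5 all lay among Brpf3, Arfgef2, Top2b and Pgap1. Members had a median r of 0.01 with the other genes. These correlations share the libraries, their depth and the makeup of each sample, and are given as a description.

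The genes most like each member by that measure, out of 9311 genes that passed the filter in all 3 tissues, were as follows. Arfgef2 had the closest likeness, with 2610507B11Rik (r = 0.92) and Arhgap32 (0.90). Top2b went with Caprin1 (0.85), an RNA-binding protein, and Nfatc3 (0.82), and Pgap1 with Ltn1 (0.84), a ubiquitin ligase of stalled ribosomes, and Golm1 (0.80), a Golgi membrane protein. Brpf3 went with Dot1l (0.79), a histone H3 methyltransferase, and Myo19 (0.77), and Pip5k1b with Osbpl2 (0.78), a lipid transfer protein, and Prr15l (0.64). Nedd9 went with Fam20b (0.76) and Igf2r (0.74), 5031439G07Rik with Ppard (0.67), a nuclear receptor for fatty acids, and 6330578E17Rik (0.62), and Zfp961 with C230052I12Rik (0.61) and Nif3l1 (0.58). Of these 16 genes, Ppard and Myo19 were called in crypts, both higher, with log2 fold changes of 0.83 ± 0.07 (adjusted p = 3.0e-05 by limma) and 0.72 ± 0.10 (adjusted p = 0.00197 by limma).

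Differences of level between tissues among the vitamin D libraries come from the authors' deposited tables, which share libraries with the fold changes above. Their sign was read from the data: across 9311 genes they had a Pearson r of at least 0.99 with the second tissue minus the first in mean log2(FPKM + 0.5), and they are given here as first minus second. Over those genes the values of the authors' deposited tables lay a median of 0.48 (villi and crypts), 0.67 (villi and colon) and 0.07 (crypts and colon) further toward the first tissue than the FPKM differences, so a difference of about that size depends on the scaling. By the authors' deposited table of villi and colon, the log2 difference was 0.64 (Brpf3) to 1.90 (Zfp961) for 7 members and -0.74 for Nedd9. In the authors' deposited table of crypts and colon, Nedd9 had -2.06, the largest difference in size of the 8. Between villi and crypts, the authors' deposited table gave Top2b -0.09, Pgap1 -0.17 and the other 6 members 0.45 (Pip5k1b) to 1.18 (Nedd9). By FPKM as well as by the authors' deposited tables, Nedd9 had its highest level after the hormone in colon (56.3 FPKM, beside 20.8 in villi and 12.8 in crypts), and Arfgef2 and 5031439G07Rik had theirs in villi. For Brpf3 and Pip5k1b the order of the tissues turned with the scaling: Brpf3 averaged 45.0 FPKM in colon and 43.2 in villi, and Pip5k1b 53.4 in crypts and 51.8 in villi, whereas the authors' deposited tables put both highest in villi.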

How the data were processed

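Per the file headers, the authors deposited for each tissue a table of FPKM with 21441 genes and a column per library, and, for comparisons the authors made, tables with a mean normalised count (a signal per gene), a log2 fold change with its error, a test score, and p-values before and after adjustment. The submitters' processing notes name the build mm9 and the tools DESeq2, DESeq 1.28.1 and kallisto 0.45.0. The column each tool made, and any use of strand in counting, are not given in the sources used here. Upstream sequences are from RefSeq on GRCm38.p6, another build than that of the files, and exon overlaps were read from GENCODE on that same assembly; no coordinate was carried between builds.

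Each tissue was fitted alone in R 4.3.3 with limma 3.58.1 (lmFit, eBayes with trend) on log2(FPKM + 0.5), for genes that reached an FPKM of 1 in 6 or more of its libraries: 9706 genes in villi, 10733 in crypts and 11540 in colon. Adjustment followed Benjamini and Hochberg over all genes tested, at 0.05, and the script was tested on simulated data. The 8 members, the gene lists and the tests were chosen with earlier results of these data known. Genes named beside the members are Cyp24a1 and Vdr, 10 close relatives, and for each member the 2 genes with the highest within-group correlation. Pigv and Mppe1 are named as the ends of the GPI anchor list. Exon partners and the tissue markers are named beside the results they touch. Apoa1, Lyz1 and Car1 were picked from their lists after their values were seen.

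Depth was read from the steps between low FPKM values: 84.5% to 93.1% of values worth up to 15 reads lay within 0.05 of a whole number of reads. These reads served for depth and for comparing replicates alone, and every pair of replicates differed by more than sampling noise (chi-square over degrees of freedom at least 12.8). Between libraries with the same replicate number in the titles, deviations from the group mean had correlations of 0.10 to 0.46 in villi. Those in crypts were 0.12 to 0.55. In colon the correlations ran from 0.06 to 0.57. The correlations between libraries of unlike number were not summarised beside them. The main fits used no pairing, and only the replicate block, an alternative run in each tissue, used the replicate numbers of the titles. For some libraries of villi and colon the column names give another replicate number than the titles. In these 2 tissues the block also joined some libraries of unlike name style and sex pattern. A pairing by number is a hint from the data, not the design: 3 of 6 vehicle libraries of villi and 3 of 6 of crypts correlated better with a vitamin D library of another number than with that of their own. In colon, vehicle replicate 4 alone correlated best with the vitamin D library of its own number.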

Additional observations from a re-analysis of the deposited data

Results flagged for a closer look

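Among 48 groups of libraries checked (8 genes in 6 groups), 2 held a library far from the others by Dixon's test at the 95% level, and chance alone flags about 1 group in 20. In crypts, vitamin D replicate 1 had the lowest 5031439G07Rik level of its group, 15.7 FPKM, with the next at 19.1 FPKM (gap over range 0.862); it still lay above all vehicle libraries. In colon, vehicle replicate 6 had the highest Arfgef2 level of its group, 19.1 FPKM, with the next at 15.1 FPKM (gap over range 0.636).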

How the results depend on the processing

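Of the 8 members, Brpf3, Pgap1, Pip5k1b and 5031439G07Rik were called in crypts under each of 22 alternatives, Nedd9 under none (adjusted p 0.411 to 0.891 by limma or the authors' deposited table), and 4 to 6 members were called in all. Pseudocounts of 0.1 and 1, no filter on low values and median-ratio scaling gave 5 members and 156 to 159 genes. The number of genes called in crypts, 157, moved to 444 with the replicate block, 391 with name style and 272 with sex pattern as a covariate, 309 with the villus marker sum (chosen after seeing the data), 68 among plain-named libraries and 550 in the authors' deposited table. Leaving out 1 library gave 105 to 1059, the highest without vehicle replicate 4, and 4 to 6 members. Called relatives in the family lists, 0 as reported, came to 7 with the replicate block, 6 with name style, 1 with sex pattern, 3 with the villus marker sum, 7 in the authors' deposited table, and 0 to 7 with 1 library left out (7 without vehicle replicate 4, 1 without vehicle replicate 6). The cause of these moves was not tested. The replicate block changed no member's call. The median difference between villus and colon log2 fold changes of the members, 0.85, stayed between 0.79 and 0.87 with 1 library left out, and was 0.79 without colon vitamin D replicates 1 and 2, chosen after seeing the data. The members were selected on that difference, so its range is a description and not support for the set. Each library is 1 sample of unknown relation to a mouse, and the depth behind a member is lowest for Zfp961 in colon, with a mean normalised count of 310 in the authors' deposited table.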
